A study of Mus musculus with 3 samples.

Results

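Described here are 10 genes of MHC class I antigen presentation and peptide loading: H2-K1, H2-D1, B2m, Tap1, Tap2, Tapbp, Psmb8, Psmb9, Psmb10 and Nlrc5. They were chosen by name for their place in the pathway, not by their values, and are 10 of the 17168 genes in the deposited count table. They were followed over the authors' 10 cell classes and 14 clusters in leukocytes of the sciatic nerve. CD45+ cells were taken at 15 weeks of age from NOD.AIRE GW/+ mice, an autoimmune-prone strain in which 1 copy of Aire, the thymic regulator of self-antigen display, is altered. All 3 libraries (11640 cells) have this genotype and no wild type is analysed here, so every comparison runs between cell classes of the same nerves. Whether a library is 1 animal or a pool is not in the labels. With the library as a block, a p-value here reflects only how class differences vary from library to library. Libraries 1 and 2 were read from the 3′ end of transcripts and library 3 from the 5′ end, per the labels.

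MHC class I molecules show peptides from inside the cell to CD8 T cells. The immunoproteasome, in which the inducible subunits Psmb8, Psmb9 and Psmb10 replace the constitutive Psmb5, Psmb6 and Psmb7, cuts proteins into peptides. The transporter formed by Tap1 and Tap2 moves them into the endoplasmic reticulum, and tapasin (Tapbp) helps load them onto a heavy chain, such as H2-K or H2-D, paired with beta-2-microglobulin (B2m). Nlrc5 is a transactivator of class I genes, and interferons raise most of the pathway. Nearly all nucleated cells carry class I molecules, and dendritic cells also use them to show engulfed antigens to CD8 T cells.

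In mm10 coordinates (GENCODE M21 annotation), 7 of the genes lie in the MHC region of chromosome 17. Tapbp (33915899 to 33929292) and H2-K1 (33996017 to 34000347) lie before a cluster of 4 genes, Psmb9 (34181987 to 34187764), Tap1 (34187553 to 34197225), Psmb8 (34197721 to 34201454) and Tap2 (34203527 to 34216321), and H2-D1 (35262730 to 35267499) lies after it. The cluster spans 34335 bases, and Psmb9 and Tap1, on opposite strands, overlap by 212 bases at their starts. How the counting treated strand is not given in the sources used here, so sharing of reads there was not tested. B2m is on chromosome 2 (122147686 to 122153083), and Psmb10 (105935735 to 105938444) and Nlrc5 (94434356 to 94527272) are on chromosome 8.

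The promoters of the heavy chains and of B2m are shown because the class I promoter code can be read in them: an NF-kB site, an interferon-response element and the X2 and Y boxes, the parts of the SXY module through which Nlrc5 acts. The 175 bases before the RefSeq transcript start are given 5′ to 3′ on the gene's strand (RefSeq, GRCm38.p6), from chr17:34000348-34000522 on the minus strand for H2-K1, chr17:35262919-35263093 on the plus strand for H2-D1 and chr2:122147512-122147686 on the plus strand for B2m. Capitals mark GGGATTCCC (NF-kB), the interferon-response core AANNGAAA or its reverse complement, and the pair TGACG (X2) and ATTGG (Y).
H2-K1: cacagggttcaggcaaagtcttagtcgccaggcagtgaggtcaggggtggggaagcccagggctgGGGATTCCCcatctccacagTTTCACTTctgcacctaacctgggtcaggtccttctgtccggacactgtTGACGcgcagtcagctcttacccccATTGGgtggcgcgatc
H2-D1: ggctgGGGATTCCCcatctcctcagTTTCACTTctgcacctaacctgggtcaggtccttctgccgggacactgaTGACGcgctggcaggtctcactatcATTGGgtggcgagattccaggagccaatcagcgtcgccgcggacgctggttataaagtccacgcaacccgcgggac
B2m: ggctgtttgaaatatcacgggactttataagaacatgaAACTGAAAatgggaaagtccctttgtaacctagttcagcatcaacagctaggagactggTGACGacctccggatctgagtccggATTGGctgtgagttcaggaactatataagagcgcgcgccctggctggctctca
The motifs were searched on both strands of the 250 bases before each start, and those marked do not overlap one another. TGACG followed after 20 bases by ATTGG was present in these 3 of the 8 genes with a promoter in the RefSeq table (not Tap2 and Nlrc5) and in 0.0913% of 32851 windows. Those windows belong to 26 of 27025 genes, among them H2-M3, another class I heavy chain. GGGATTCCC was in H2-K1 and H2-D1 and in 0.301% of windows. The interferon-response core was in H2-K1, H2-D1 and B2m, and in 21.3% of windows. A match in letters is a description and shows no binding.

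The libraries held 6033, 2333 and 3274 cells (22587246, 11398628 and 13791264 UMIs, counts of distinct transcript molecules), with medians of 3011, 4156 and 3713 UMIs per cell. Most defining markers were highest in the classes named for them, while the cDC list was split. Over the 3 libraries the macrophage genes Lyz2 and C1qa reached 8358 and 4164 CPM (UMIs per 1000000) in Mac, against at most 307 and 38.9 CPM elsewhere. The dendritic-cell gene Xcr1 was at 109 CPM in cDC and at most 1.90 CPM elsewhere. In cDC, Flt3 was at 111 CPM, Clec9a at 52.7 CPM and Cd209a at 60.6 CPM, against 147, 96.3 and 179 CPM in pDC (Siglech 2688 CPM), and Ccr7 was at 381 CPM in cDC, against 844 CPM in B cells. The macrophage gene Cd68 was at 351 CPM in Mac and 352 CPM in pDC. The authors' class Mixed, which keeps the authors' name here, was the highest for Il17a (1719 CPM) and Trdv4 (577 CPM), from the gamma-delta T cell list. Trdc, of the same list, was at 339 CPM in Mixed and 357 CPM in gdT/NK/NKT. The fibroblast gene Col1a1 was below 1 CPM in every class. Only 6 barcode sequences occurred in more than 1 library.

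All 10 genes passed the filter on low counts. Each of 8 classes was compared with the mean of the other 7 by edgeR's quasi-likelihood test on UMIs summed per class and library, over 10895 genes. Too few cells barred a test of pDC, with 2 in library 2, and of Plasma, with 7 in library 1. The cDC sums rest on 232, 28 and 34 cells, the fewest of the tested classes in libraries 2 and 3. Calls use an adjusted p under 0.05, and levels are TMM-scaled CPM. Of the 80 gene and class pairs, 38 were called, 18 higher and 20 lower. In conventional dendritic cells (cDC) 7 of 10 genes were higher and none lower, beside 20.8% of all tested genes called higher there and 19.0% lower. In macrophages (Mac) 8 were higher and none lower, beside 25.8% higher and 22.1% lower. In B cells 6 were lower and Psmb9 was higher, beside 16.4% lower and 20.8% higher. In Cd4 5 were lower and Nlrc5 was higher, beside 10.7% lower and 19.8% higher. Lower calls numbered 4 in gdT/NK/NKT (10.5% of all genes lower, 14.9% higher), 3 in Treg (9.42% and 15.8%) and 1 in Mixed (4.68% and 8.48%), where no gene of the 10 was higher. Cd8 had 1 lower (10.1%) and 1 higher (17.8%). The median log2 fold change of the 10 genes was 0.85 in cDC and 0.43 in Mac, beside -0.11 and -0.08 over all genes, and lay between -0.36 and -0.02 in the other 6 classes.

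The scale matters for macrophages: with total UMIs in place of TMM, the median of all genes moved by -0.33 (log2) in Mac, by 0.23 in Treg, by 0.16 in Cd4, by -0.12 in cDC and by 0.12 in Mixed. Called with each library left out were 20 of the 38. Those called under every alternative were 10: B2m, Psmb10 and Tapbp in Mac; Psmb8, Psmb9, Psmb10, Tap1 and Tapbp in cDC; lower Psmb10 in Cd4; and lower Tap1 in gdT/NK/NKT. Of the 38, 26 were called with total UMIs, 16 with 28 cells per class and library (limma) and 13 without the library as a block.

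**Figure D1:**
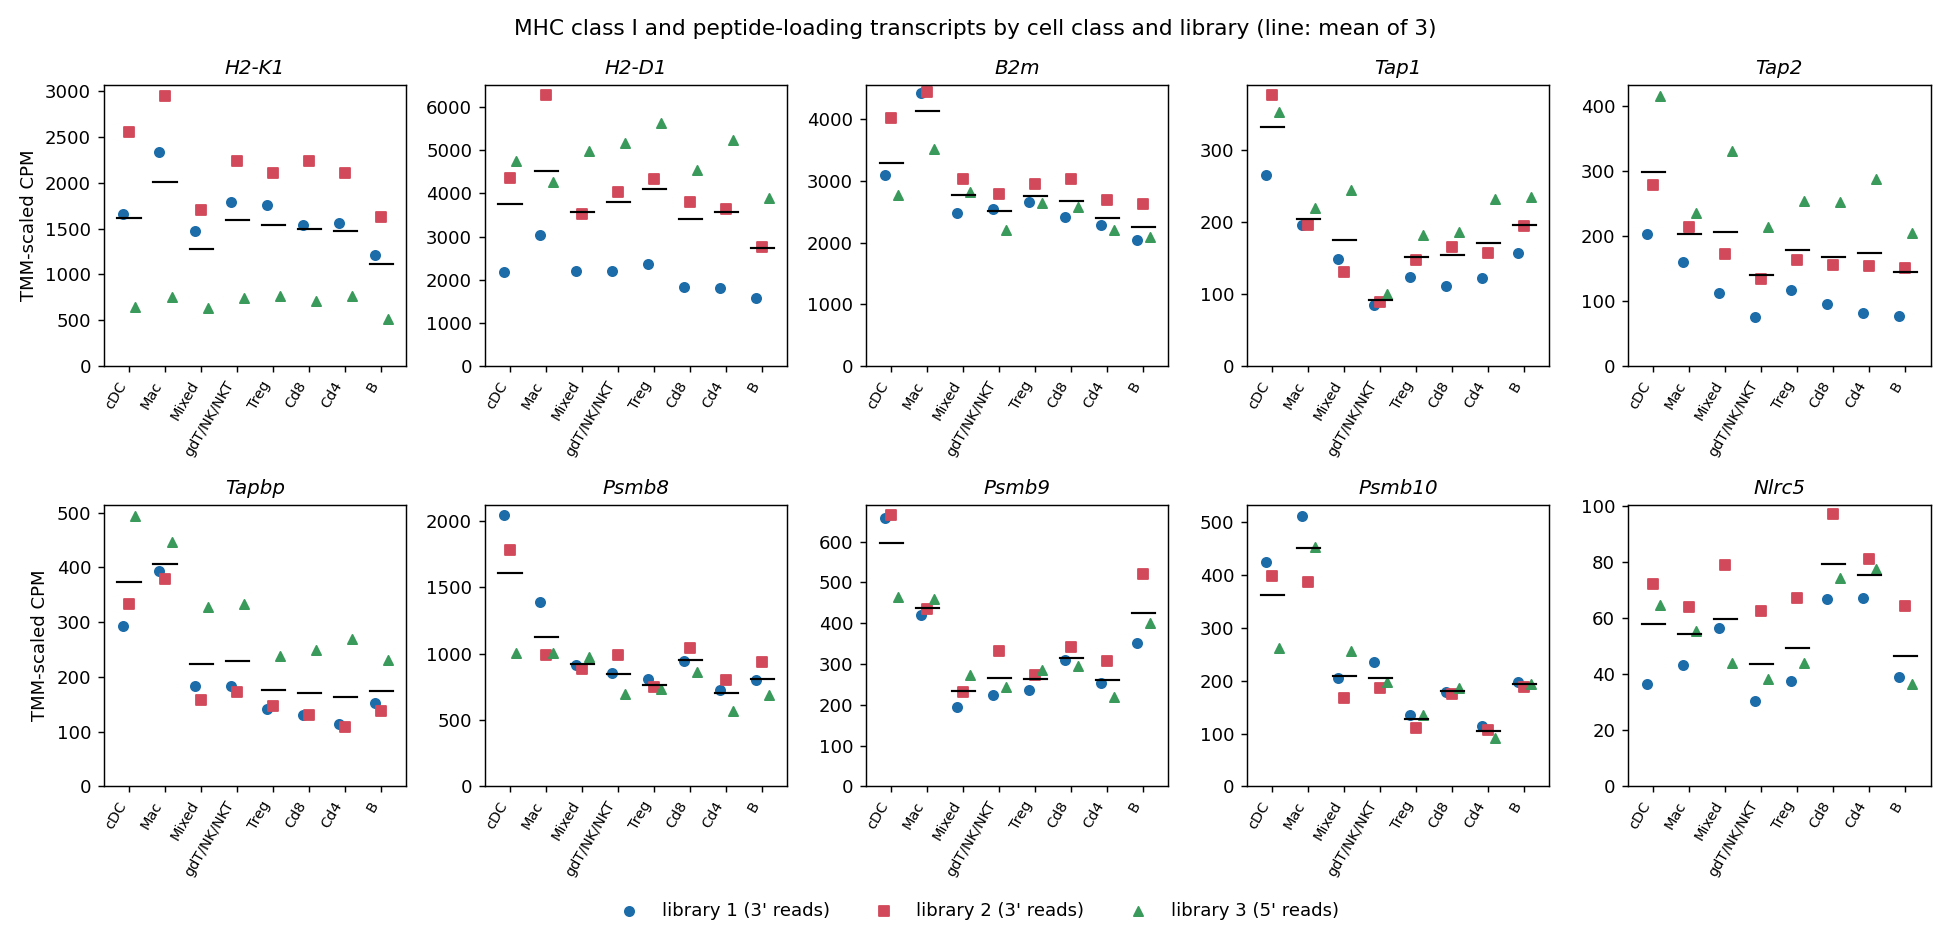
TMM-scaled CPM (y axis, linear from 0) of the 10 genes in 8 cell classes (x axis), with 1 point per library and a line at the mean of 3. By the mean, cDC lie highest for Tap1, Tap2, Psmb8 and Psmb9, macrophages for H2-K1, H2-D1, B2m, Tapbp and Psmb10, and Cd8 for Nlrc5. In library 3, the 5′ library, Treg lie highest for H2-K1 and H2-D1. H2-K1 is lowest and Tap2 highest in that library.

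**Figure D2:**
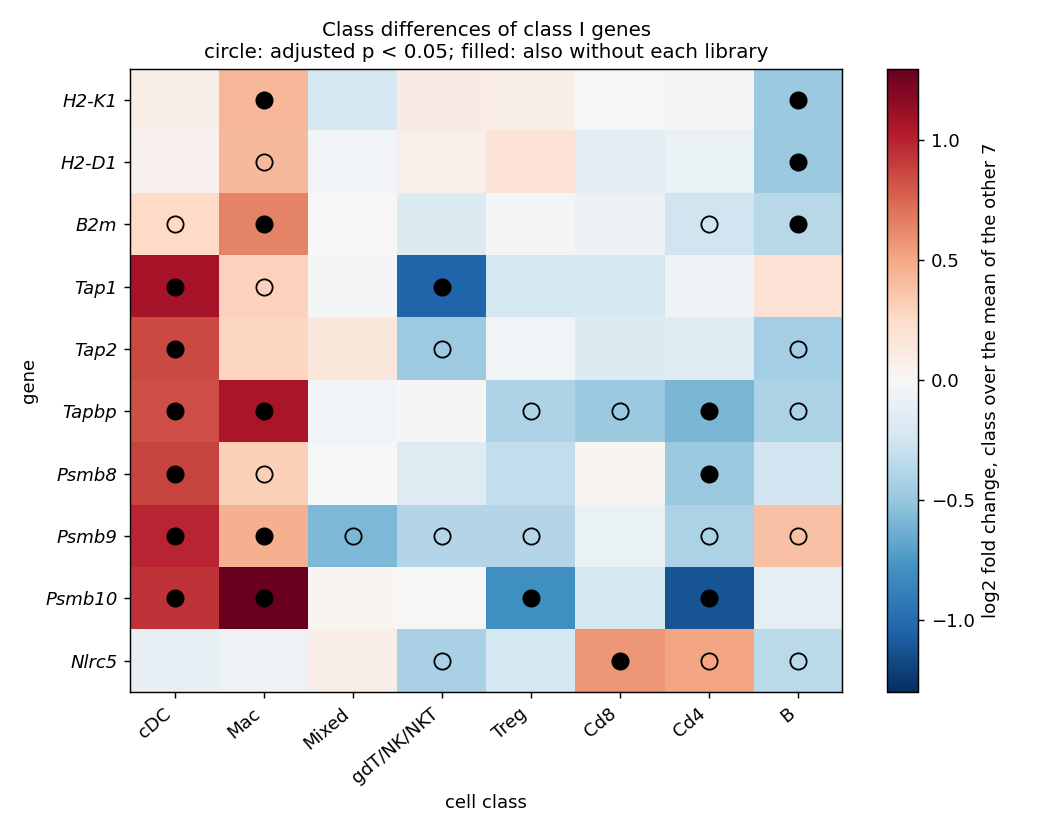
Log2 fold change (colour) of each gene (rows) in each class (columns) over the mean of the other 7 classes. Circles mark the 38 pairs at adjusted p under 0.05, filled where the call stood with each library left out, as in 20 pairs.

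The classical heavy chains were counted in every class, and B cells were the lowest tested class in each library. For H2-K1 the highest tested class lay above B cells by 1.92-fold, 1.81-fold and 1.497-fold in libraries 1, 2 and 3. For H2-D1 the same ratios were 1.91-fold, 2.28-fold and 1.44-fold. On the TMM scale the highest class for both genes was macrophages in libraries 1 and 2, and Treg in library 3. For H2-K1 in library 3, Treg and Cd4 were level (768 and 767). In unscaled CPM Treg lay above macrophages in each library, for H2-K1 at 1840, 2404 and 968 against 1790, 2126 and 719. Unscaled H2-D1 was at 2472, 4956 and 7086 in Treg and 2329, 4531 and 4063 in macrophages, with B cells of library 3 at 4206. H2-K1, a heavy chain, had 2335, 2943 and 754 TMM CPM in macrophages in libraries 1, 2 and 3, against 1214, 1630 and 513 in B cells, the lowest class. Macrophages were above B cells within each library, but library 3 lay so low that the groups overlap across libraries. H2-K1 was higher in macrophages by 0.43 ± 0.09 (log2 fold change ± SE, adjusted p = 2.1e-04) and lower in B cells by a log2 fold change of -0.48 ± 0.09 (adjusted p = 2.0e-04). H2-D1, the other classical heavy chain, had 3038, 6272 and 4265 TMM CPM in macrophages, against 1589, 2748 and 3892 in B cells. Here too every library had macrophages above B cells, and the ranges overlap. In library 3 every other tested class was above macrophages for H2-D1, with Treg highest at 5618. The log2 fold change of H2-D1 was 0.43 ± 0.11 in macrophages (adjusted p = 0.0015) and -0.48 ± 0.11 in B cells (adjusted p = 0.0015). In macrophages the H2-D1 call ended without library 1 (0.37) or library 2 (0.24), and without library 3 it was 0.71. With total UMIs the macrophage values fell to 0.08 for H2-K1 and 0.07 for H2-D1, neither called. Both heavy chains were at 0.07 and 0.05 in cDC and were not called there. No neighbouring classes in the order of levels of either heavy chain were called different.

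B2m, the light chain of every class I molecule, had 4421, 4434 and 3515 TMM CPM in macrophages and 3096, 4011 and 2771 in cDC, against 2045, 2620 and 2087 in B cells. Macrophages and cDC both lay above B cells with no overlap, while cDC of library 2 were above macrophages of library 3. B2m was higher in macrophages (0.64 ± 0.07, adjusted p = 5.6e-08) and in cDC (0.26 ± 0.08, adjusted p = 0.0087). It was lower in B cells (-0.36 ± 0.08, adjusted p = 8.5e-04) and in Cd4 (-0.26 ± 0.08, adjusted p = 0.015). The cDC value moved to 0.46 without library 1, and the call ended without library 2 (0.29) and with total UMIs (0.14). The Cd4 call ended without library 1 (-0.32), without library 2 (-0.27), with total UMIs (-0.10), without cluster 5 (-0.20), a low-depth part of Cd4, and without the count filter (-0.25).

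Of the UMIs of H2-K1 and H2-D1 together, H2-K1 took 40.2% to 46.4% in library 1, 31.9% to 37.2% in library 2 and 11.4% to 15.0% in library 3 over the 8 tested classes. In cDC the share was 43.2%, 36.9% and 11.95%, against 43.5%, 31.9% and 15.0% in macrophages. The libraries differed far more than the classes did, and the ranges of the 3 libraries do not overlap. Macrophages had the lowest share of the tested classes in library 2 and the highest in library 3. Treg, at 42.7%, 32.7% and 12.02%, were below Cd4, at 46.4%, 36.6% and 12.8%, in each library. Plasma cells lay above the tested classes in each library, at 60.1% (95% exact interval 54.2% to 65.7%), 48.8% (46.1% to 51.4%) and 15.6% (14.3% to 17.1%). In library 3 that interval overlaps the one of macrophages. NOD mice carry the H2g7 haplotype, whose K allele differs from that of the C57BL/6-based mm10 genome, and the class I heavy-chain genes are near-identical copies. How reads of these genes were shared out was not tested, so their levels are compared between classes within libraries only. Over whole libraries H2-K1 was at 1461, 2170 and 795 CPM, H2-D1 at 1818, 3908 and 5398 CPM, and H2-Q4, a nonclassical heavy chain, at 107, 316 and 703 CPM. B2m stayed within 1.26-fold, at 2353, 2975 and 2896 CPM.

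**Figure D3:**
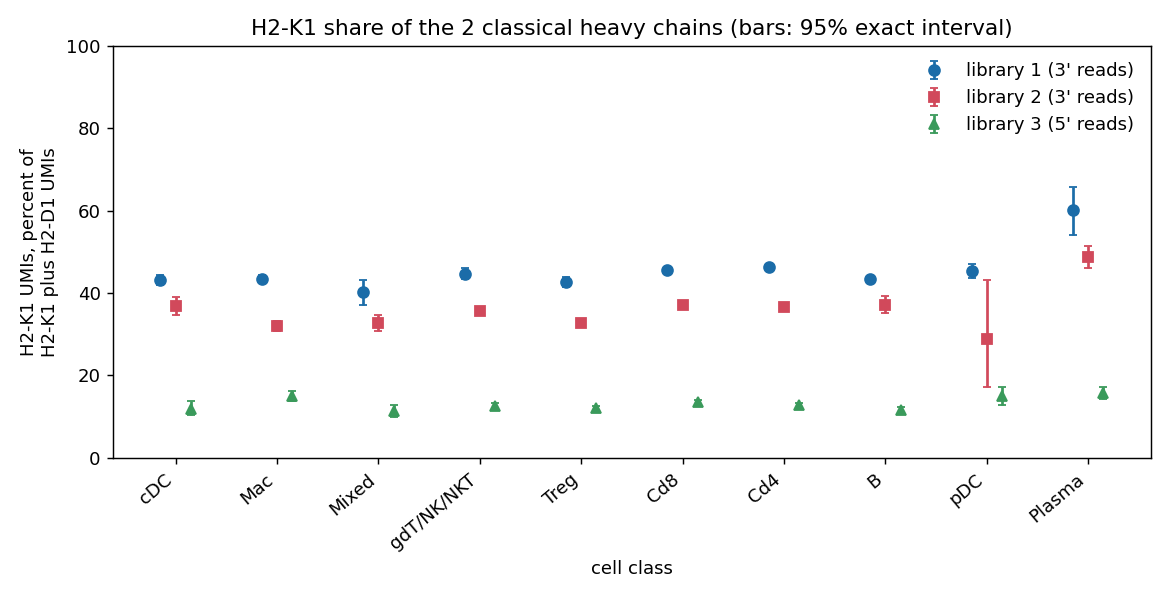
H2-K1 UMIs as a percent of H2-K1 plus H2-D1 UMIs (y axis) in 10 cell classes (x axis), 1 point per library with its 95% exact binomial interval, which covers counting error only. Library 3, the 5′ library, lies between 11.4% and 15.6% in every class, below both 3′ libraries; the 52 UMIs of pDC in library 2 give a wide interval.

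Among the immunoproteasome subunits, which set the peptide repertoire, the myeloid classes were highest by the mean TMM CPM. For macrophages this did not hold in each library. In library 2 Cd8 lay above them for Psmb8 (1041 against 993) and B cells for Psmb9 (520 against 434), and neither class pair was called. In unscaled CPM mean Psmb8 was 912 in macrophages, below Mixed (997) and Cd8 (945). Psmb8 had 2046, 1777 and 1001 TMM CPM in cDC and 1385, 993 and 1006 in macrophages, against 727, 802 and 571 in Cd4, the lowest class. The cDC of all 3 libraries lay above every Cd4 value, and those of library 3 were level with macrophages. Its log2 fold change was 0.88 ± 0.12 in cDC (adjusted p = 8.9e-07), 0.31 ± 0.12 in macrophages (adjusted p = 0.031) and -0.48 ± 0.12 in Cd4 (adjusted p = 0.0042). The macrophage call ended without library 1 (0.22) and the value was -0.02 with total UMIs. The Cd4 call ended with total UMIs (-0.32).

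Psmb9 had 659, 666 and 464 TMM CPM in cDC, 421, 434 and 460 in macrophages and 351, 520 and 401 in B cells, against 195, 232 and 273 in Mixed. B cells and macrophages overlap, and both lay above every value of Mixed. Psmb9 was higher in cDC (0.99 ± 0.11, adjusted p = 1.1e-07), in macrophages (0.46 ± 0.11, adjusted p = 0.0015) and in B cells (0.38 ± 0.11, adjusted p = 0.010). With total UMIs the macrophage value was 0.13 and the B cell value 0.30, neither called, and the B cell call also ended without library 1 (0.45) or library 2 (0.32). Psmb9 was lower in Mixed (-0.58), Cd4 (-0.41), Treg (-0.38) and gdT/NK/NKT (-0.38), and none of these calls stood with every library left out. They ended without library 1 in Mixed (-0.51), Treg (-0.38) and gdT/NK/NKT (-0.33), without library 2 in Mixed (-0.52) and Treg (-0.34), and without library 3 in Cd4 (-0.32). With total UMIs Psmb9 was at -0.25 in Cd4 and -0.15 in Treg, not called.

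Psmb10 had the widest range of the 10 genes, 4.31-fold between the means of the 8 tested classes. It had 512, 386 and 454 TMM CPM in macrophages and 425, 398 and 263 in cDC, against 136, 110 and 136 in Treg and 115, 107 and 92.0 in Cd4. Macrophages and cDC lay above all T cell values in each library, and Treg overlap Cd4. The log2 fold change was 1.29 ± 0.11 in macrophages (adjusted p = 1.3e-10), 0.94 ± 0.12 in cDC (adjusted p = 4.3e-07), -0.79 ± 0.13 in Treg (adjusted p = 2.3e-05) and -1.12 ± 0.12 in Cd4 (adjusted p = 1.2e-07). Cd8, at 180 ± 5.92 TMM CPM (SD, n = 3), lay above Treg, at 127 ± 15.1, by 0.50 (adjusted p = 0.025, among all class pairs, a contrast added after the data were seen). Of 28 class pairs, 20 were called for Psmb10, the most of the 10 genes, beside 30.5% of gene and pair tests called over all genes and 16.0% in Cd8 against Treg.

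Each inducible subunit was also set against the constitutive subunit it replaces, by UMIs not scaled for length, so shares are compared between classes and not between subunits. The 3 inducible subunits held 81.8 ± 3.28% of the UMIs of all 6 in cDC, 78.4 ± 2.16% in macrophages and 81.0 ± 0.812% in B cells, against 75.5 ± 1.40% in Cd4 and 74.0 ± 1.44% in Treg (SD, n = 3). The range over all 10 classes was 73.5% in Plasma to 81.8% in cDC. B cells stood out for Psmb9, with 70.7%, 76.5% and 77.3% of Psmb9 plus Psmb6 UMIs, against 64.3%, 64.5% and 65.0% in Cd4. For Psmb10 and Psmb7, macrophages had 81.9%, 76.7% and 81.9% and Treg 66.3%, 57.8% and 69.1%. B cells and Cd4 for Psmb9, and macrophages and Treg for Psmb10, are apart in every library. Psmb8 of Psmb8 plus Psmb5 varied least, between 80.4% in Treg and 88.1% in cDC.

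**Figure D4:**
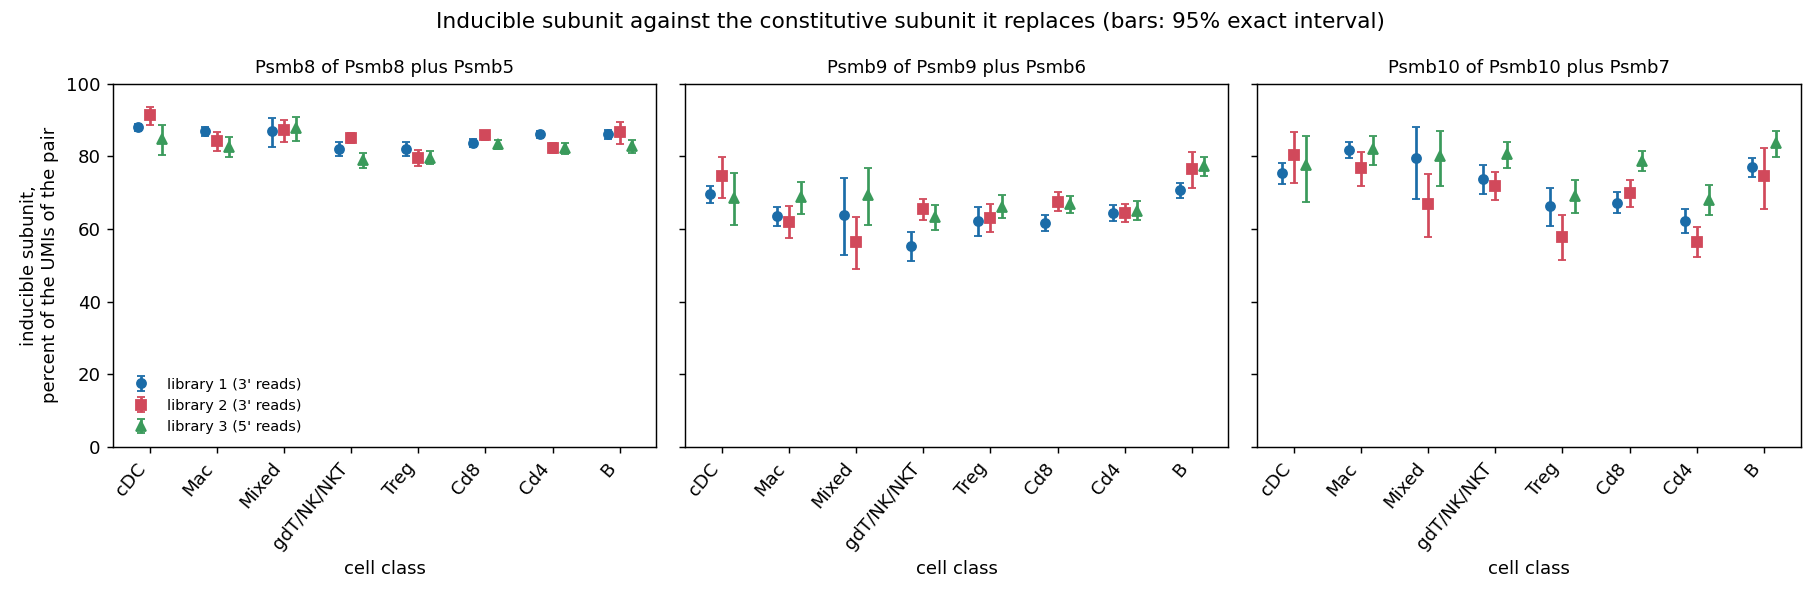
Share (y axis, percent of the UMIs of a pair) of Psmb8, Psmb9 and Psmb10 in their sums with Psmb5, Psmb6 and Psmb7, by class (x axis) and library, with 95% exact binomial intervals (counting error only). The lowest Psmb10 shares are those of Treg and Cd4 in library 2, 57.8% and 56.5%.

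Tap1, a subunit of the peptide transporter, split the classes at both ends. It had 266, 376 and 354 TMM CPM in cDC, against 84.8, 89.8 and 99.97 in gdT/NK/NKT. The lowest cDC value was above the highest of the other 7 tested classes, 245 in Mixed of library 3. Every gdT/NK/NKT value lay below every value of the other tested classes. The untested classes were also low: in unscaled CPM Tap1 averaged 55.5 in pDC and 71.2 in Plasma, against 93.9 in gdT/NK/NKT. The Plasma values rest on 6, 26 and 56 UMIs. Tap1 was higher in cDC (1.07 ± 0.12, adjusted p = 6.2e-08) and lower in gdT/NK/NKT (-1.04 ± 0.13, adjusted p = 6.8e-07). In pair contrasts, added after the data were seen, gdT/NK/NKT differed from each of the other 7 tested classes. Over all genes and the 28 class pairs, 30.5% of tests were called. With 28 cells per class and library the value in gdT/NK/NKT was -1.65. In macrophages Tap1 was at 0.30 ± 0.12 (adjusted p = 0.038), which ended without library 1 (0.19) or library 2 (0.32) and was -0.04 with total UMIs.

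Tap2, its partner subunit, had 203, 279 and 415 TMM CPM in cDC, against 75.1, 133 and 214 in gdT/NK/NKT and 77.8, 151 and 205 in B cells. In each library cDC were above both, and library 3 was the highest in all 3 classes. Its log2 fold change was 0.85 ± 0.13 in cDC (adjusted p = 6.4e-06), -0.47 ± 0.13 in gdT/NK/NKT (adjusted p = 0.0082) and -0.44 ± 0.13 in B cells (adjusted p = 0.011). Both lower calls ended without library 1 (-0.43 and -0.37), and with 28 cells per class and library the B cell value was 0.06. In macrophages Tap2 was at 0.28 (adjusted p = 0.069), was called without library 3 (0.54), without cluster 5 (0.32) and with DESeq2 (0.30), and was -0.06 with total UMIs.

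Tapbp, the tapasin that holds class I at the transporter, had 394, 379 and 446 TMM CPM in macrophages and 293, 333 and 495 in cDC, against 115, 108 and 268 in Cd4. Within each library both myeloid classes lay above Cd4, with no overlap across libraries either. Tapbp was higher in macrophages (1.06 ± 0.11, adjusted p = 1.1e-08) and in cDC (0.84 ± 0.12, adjusted p = 3.5e-06). It was lower in Cd4 (-0.59), Cd8 (-0.48), B cells (-0.41) and Treg (-0.40). The Cd4 call stood with each library left out, while the others ended without library 1 (-0.50 in Cd8, -0.49 in B cells, -0.43 in Treg), and without library 2 in B cells (-0.37) and Treg (-0.46). With total UMIs the Treg value was -0.17, not called.

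Nlrc5, the class I transactivator, was the most thinly counted of the 10, with 2755 UMIs in all, and its classes ran in another order. It had 66.7, 97.1 and 74.5 TMM CPM in Cd8 and 67.3, 81.2 and 77.5 in Cd4, against 30.4, 62.6 and 38.5 in gdT/NK/NKT and 38.9, 64.2 and 36.4 in B cells. All values of Cd8 and Cd4 lay above all those of gdT/NK/NKT and B cells. Nlrc5 was higher in Cd8 (0.58 ± 0.11, adjusted p = 2.6e-04) and Cd4 (0.51 ± 0.11, adjusted p = 7.9e-04), and lower in gdT/NK/NKT (-0.43, adjusted p = 0.019) and B cells (-0.35, adjusted p = 0.045). In cDC and macrophages it was at -0.11 and -0.06, not called. The Cd4 call ended without library 1 (0.36) and without deposited cluster 5 (0.22), the low-depth cluster described below. The gdT/NK/NKT call ended without library 1 (-0.39) or library 3 (-0.42), and the B cell call without library 1 (-0.47), library 2 (-0.34), library 3 (-0.24), cluster 5 (-0.28) or the count filter (-0.32). With 28 cells per class and library Nlrc5 was at 0.04 in Cd8 and 0.44 in B cells, neither called.

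cDC were set against macrophages directly, a comparison in which 7.55% of all tested genes were called higher in cDC and 12.3% lower. Tap1 (0.67 ± 0.16, adjusted p = 0.0035), Tap2 (0.50 ± 0.17, adjusted p = 0.042), Psmb8 (0.49 ± 0.16, adjusted p = 0.032) and Psmb9 (0.46 ± 0.16, adjusted p = 0.042) were higher in cDC, and B2m was lower (-0.34 ± 0.10, adjusted p = 0.022). The transporter and 2 of 3 inducible subunits were thus above macrophages in cDC. Psmb10 (-0.30), Tapbp (-0.19), H2-K1 (-0.31), H2-D1 (-0.32) and Nlrc5 (-0.04) were not called. Only the Tap1 call stood with each library left out. The Psmb8 and Psmb9 calls ended without library 1 (0.58 and 0.46) or library 2 (0.42 and 0.47), and the Tap2 call without library 1 (0.73), library 2 (0.64) or library 3 (0.39). B2m was not called without library 1 (-0.10), library 2 (-0.34) or library 3 (-0.31), with DESeq2 (-0.26) or with total UMIs (-0.15). Median depth was 8700 UMIs per cell in cDC and 7434 in macrophages, against 3114 in B cells and 2505 in Cd4, and the part of depth in these class differences was not tested.

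In Treg against Cd4, 3.94% of tested genes were called higher and 4.30% lower, and of the 10 genes Nlrc5 alone was called. It had 37.5, 67.3 and 43.9 TMM CPM in Treg, against 67.3, 81.2 and 77.5 in Cd4, lower in each library (-0.65 ± 0.16, adjusted p = 0.0087). The highest Treg value equals the lowest Cd4 value to 3 digits. The call ended without library 1 (-0.54), without library 3 (-0.55) and without cluster 5 (-0.38).

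Within classes, 12 of the 14 deposited clusters were tested over 10545 genes, and 45 of 120 gene and cluster pairs were called, beside 27.3% over all genes. Between the Cd8 clusters 4 and 3 (14.7% of genes called), Psmb10 had 155, 159 and 161 TMM CPM in cluster 4, against 238, 205 and 235 in cluster 3, with no overlap (-0.52 ± 0.16, adjusted p = 0.026). The inducible share of proteasome UMIs was 75.4 ± 1.59% in cluster 4 and 80.8 ± 1.24% in cluster 3. The Psmb10 call ended without library 1 (-0.48), library 2 (-0.61) or library 3 (-0.50), and with total UMIs (-0.43). Between the gdT/NK/NKT clusters 9 and 8 (3.60% of genes called), Nlrc5 had 29.2, 77.6 and 79.1 TMM CPM in cluster 9, against 32.4, 42.5 and 30.8 in cluster 8. It was higher in cluster 9 in libraries 2 and 3 and lower in library 1 (0.76 ± 0.22, adjusted p = 0.045), and the call ended without library 2 (0.70) or library 3 (0.57), without doublets (0.73) and without the count filter (0.78). Without library 1 it was 1.06, and with 28 cells per cluster and library it was 2.13 and not called. By edgeR none of the 10 genes was called between clusters 6 and 0 of Cd4 (6.91% of genes called, 1 of the 10 at an unadjusted p under 0.05) or between clusters 11 and 9 (11.6% of genes called, 3 of the 10).

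Of the 12 tested clusters, cluster 8 had the lowest mean Tap1. It had 72.5, 60.3 and 95.3 TMM CPM there (-1.29 against the other 11 clusters, adjusted p = 5.2e-08), and 110, 112 and 148 in cluster 9 (-0.55, adjusted p = 0.011). Both clusters of the class were thus called lower for the transporter gene, and Tap1 in cluster 9 against cluster 8 was at 0.68 (adjusted p = 0.066). Of all tested genes 7.44% were called lower in cluster 8 and 5.22% in cluster 9.

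Cluster 5, counted by the authors with Cd4, held shallow cells: 973 cells with a median of 861 UMIs and 7.05% mitochondrial UMIs, against 3128 UMIs and 3.23% in cluster 0. Its genes of the pathway went in both directions. Nlrc5 had 157, 152 and 150 TMM CPM in cluster 5, against 58.0, 75.3 and 57.2 in cluster 0, and Psmb8 had 220, 261 and 206 in cluster 5, against 777, 845 and 688 in cluster 0. Neither gene overlaps between the clusters. In this contrast, added after the data were seen, 39.8% of genes were called. Nlrc5 (1.35 ± 0.18), Tap2 (1.05 ± 0.18), Tapbp (0.80 ± 0.17) and Tap1 (0.74 ± 0.19) were higher in cluster 5, and Psmb10 (-1.81 ± 0.24), Psmb8 (-1.77 ± 0.17), Psmb9 (-1.69 ± 0.19) and B2m (-0.67 ± 0.15) were lower. The heavy chains H2-K1 (0.23) and H2-D1 (0.30) were not called. TMM factors were 1.37, 1.61 and 1.61 in cluster 5, against 0.92, 1.01 and 1.11 in cluster 0. B2m was level in library 2 (2690 and 2692 TMM CPM), and in unscaled CPM it averaged 2631 in cluster 5 and 2602 in cluster 0. Unscaled H2-D1 averaged 6899 in cluster 5 and 3383 in cluster 0. Psmb10 rests on 27, 2 and 22 UMIs in cluster 5. Tap1 had 139, 177 and 414 TMM CPM in cluster 5, against 124, 148 and 174 in cluster 0, apart mostly in library 3. No alternative, such as leaving a library out, was run for this contrast. The inducible share of proteasome UMIs was 73.4 ± 3.59% in cluster 5 and 76.4 ± 0.450% in cluster 0. The part of depth and mitochondrial share in these values was not tested.

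**Figure D5:**
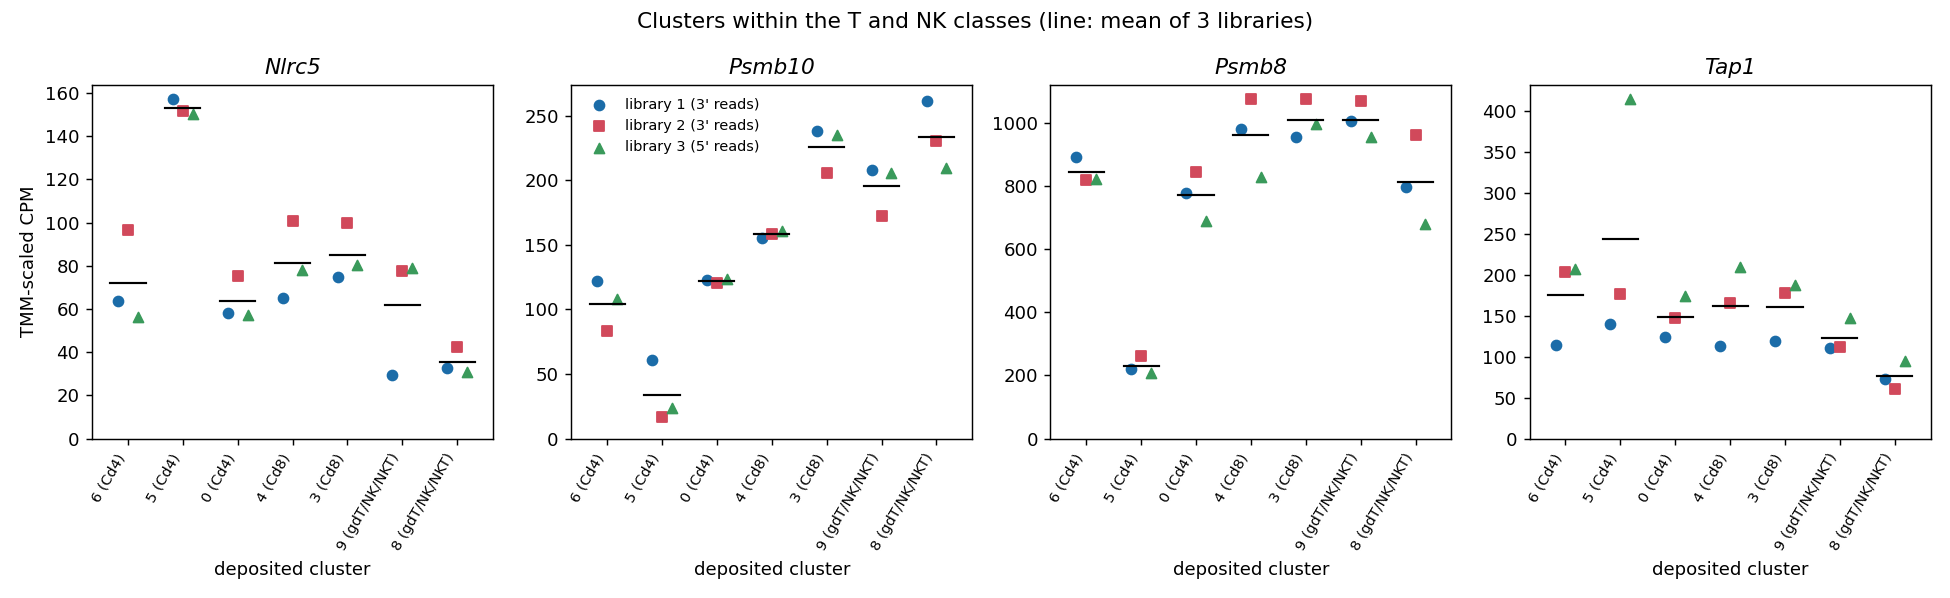
TMM-scaled CPM (y axis, linear from 0) of Nlrc5, Psmb10, Psmb8 and Tap1 in 7 clusters of the Cd4, Cd8 and gdT/NK/NKT classes (x axis), 1 point per library, line at the mean of 3. Cluster 5, of median depth 861 UMIs, has the highest Nlrc5 (153 on average) and the lowest Psmb8 (229); cluster 8 has the lowest Tap1 of the 7 (76.0).

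pDC and plasma cells, not tested, are given as unscaled CPM. Nlrc5 gave 24, 0 and 1 UMIs in pDC (27.1, 0 and 4.39 CPM) and 1, 4 and 7 UMIs in plasma cells. These counts are thin, and library 2 holds only 2 pDCs. Tap1 in pDC gave 66, 0 and 21 UMIs (74.4 and 92.2 CPM in libraries 1 and 3). Plasma cells, which make antibody, had B2m at 4140, 4211 and 3998 CPM beside Psmb10 at 60.6, 48.1 and 57.7 CPM, from 6, 13 and 57 UMIs.

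Shares of cells with a UMI were compared after thinning each cell to 1000 UMIs, which left out 725 shallower cells, 624 of them Cd4. No class here lacks class I genes, so there is no background class, and free RNA was not measured. Tap1 was seen in 18.1%, 29.6% and 27.3% of cDC in libraries 1 to 3, and in 12.7%, 20.4% and 20.0% of macrophages, against 7.65%, 10.3% and 13.4% of gdT/NK/NKT cells. Within each library the order of the 3 classes was the same. Unthinned, the mean shares were 83.3%, 62.0% and 37.6%. Psmb10 was seen in 33.3%, 21.4% and 37.1% of macrophages, against 10.3%, 9.24% and 9.90% of Cd4 cells, again apart in every library (79.9% and 24.9% on average unthinned). Nlrc5 was seen in 8.73 ± 2.40% of Cd4 and 7.55 ± 1.76% of Cd8 cells and in 4.05 ± 1.42% of B cells. For H2-K1 and B2m the thinned shares ran in another order than the levels. H2-K1 was seen on average in 68.1% of macrophages and 62.3% of cDC, against 76.0% of Treg, 74.1% of Cd4 and 58.3% of B cells. The B2m averages were 94.8% in macrophages and 85.7% in cDC, against 94.2% in Treg, 89.6% in Cd4 and 84.3% in B cells.

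Other genes of the pathway were read from lists in the same fit, where 20.8% of all genes were called higher and 19.0% lower in cDC, and 25.8% higher and 22.1% lower in macrophages. Of 8 proteasome partners (constitutive subunits, activators and the assembly factor Pomp), 6 were higher in cDC and 6 in macrophages, none lower, with median log2 fold changes of 0.63 and 0.64 beside -0.11 and -0.08 over all genes. Psme2, a subunit of the PA28 activator, had 871, 840 and 925 TMM CPM in cDC and 611, 422 and 1168 in macrophages, against 213, 128 and 337 in B cells. It was higher in cDC (1.48 ± 0.13) and macrophages (1.01 ± 0.12) and lower in B cells (-0.87). Pomp (1.56 in cDC, 0.90 in macrophages), Psme1 (1.12 and 0.62) and the constitutive subunit Psmb6 (0.63 and 0.56) were likewise higher in both. In B cells 5 of the 8 were lower and 1 higher, beside 16.4% of all genes lower and 20.8% higher, and in Cd4 5 were lower, beside 10.7%.

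Of 8 genes for class I assembly and peptide trimming, 5 were higher in cDC, beside 20.8% of all genes, and 5 in macrophages, beside 25.8%. Calreticulin (Calr), a chaperone of the loading complex, had 900, 431 and 320 TMM CPM in cDC and 1124, 626 and 382 in macrophages, against 364, 233 and 121 in Cd8. Macrophages were highest in each library. Calr (1.36 ± 0.09 in macrophages, 0.94 ± 0.10 in cDC), the chaperones Hspa5 (1.13 and 0.68) and Canx (1.10 and 0.70) were called in both. Tapbpl, the tapasin-related editor TAPBPR, went with other classes: it had 98.7, 186 and 150 TMM CPM in Cd8, against 35.7, 35.4 and 71.8 in B cells. The groups do not overlap, and Tapbpl was higher in Cd8 (1.11), gdT/NK/NKT (0.72) and Treg (0.52), and lower in Mixed (-1.37) and B cells (-0.64).

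Among 11 transcription factors of class I genes, 3 were higher and 1 lower in cDC, and 3 were higher and 2 lower in macrophages. These counts lie near the share of all genes called (20.8% higher and 19.0% lower in cDC, 25.8% and 22.1% in macrophages). Irf1, an interferon-induced activator, was higher in macrophages (1.32 ± 0.12) and cDC (0.44 ± 0.14) and lower in Cd4 (-0.76) and gdT/NK/NKT (-0.42). Nfya, a subunit of the Y-box factor NF-Y, was higher in macrophages (0.86) and cDC (0.74) and lower in gdT/NK/NKT (-0.81) and Cd8 (-0.59), while Irf2 was higher in Cd8 (0.56) and B cells (0.50) and lower in Mixed (-0.63) and cDC (-0.47). Of 7 interferon receptors and kinases, 3 were higher and 2 lower in each of cDC and macrophages, beside 20.8% higher and 19.0% lower of all genes in cDC and 25.8% and 22.1% in macrophages. Ifngr2, a chain of the interferon-gamma receptor, averaged 165 TMM CPM in cDC, 213 in macrophages and 115 in B cells, against 2.2 in Cd8 and 1.4 in gdT/NK/NKT, while Ifngr1, the other chain, was highest in Treg at 1585 and lowest in B cells at 216. Jak2 was higher in cDC (1.91) and Cd4 (1.22), and Jak1 was lower in cDC (-1.45) and macrophages (-0.60) and higher in gdT/NK/NKT (0.91).

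Of 16 other class I and class I-like heavy chains in the table, 6 were higher and 2 lower in cDC, beside 20.8% and 19.0% of all genes, and 4 higher and 3 lower in macrophages, near the 25.8% and 22.1% of all genes. H2-T22, a nonclassical heavy chain, was higher in Treg (0.67), Cd8 (0.55) and Cd4 (0.40) and lower in macrophages (-0.69). Fcgrt, the neonatal Fc receptor heavy chain, which pairs with B2m, had 211, 86.9 and 259 TMM CPM in cDC and 88.2, 92.2 and 58.4 in macrophages, against 22.1, 8.86 and 16.1 in B cells. Every myeloid value lay above those of B cells. Cd1d1, which shows lipids to NKT cells, had 0.516, 0 and 0 TMM CPM in macrophages, against 16.0, 22.1 and 32.8 in B cells. H2-T3 was at 17.5 TMM CPM in Treg and 0.0 in cDC. For cross-presentation, the display of engulfed antigen, 5 of 8 genes were higher and 1 lower in cDC (20.8% and 19.0% of all genes), and 5 higher in macrophages (25.8%). Wdfy4, needed for cross-presentation by dendritic cells, had 284, 145 and 179 TMM CPM in cDC and 34.5, 20.8 and 20.96 in macrophages, against 118, 84.2 and 59.8 in B cells. cDC were highest in each library. Sec61b, of the translocon, was higher in cDC (1.10) and macrophages (0.53), Cybb, a subunit of the phagocyte oxidase, in macrophages (5.60), B cells (3.79) and cDC (3.01), and Lnpep, an endosomal aminopeptidase, was lower in cDC (-0.59).

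Across the 24 class and library points, with each library centred, the 10 genes were described by Pearson's r, without a test because points share libraries, depth and scaling. The highest pairs were Psmb10 with Tapbp (0.88), H2-D1 with H2-K1 (0.87) and Tapbp with B2m (0.84). The genes most like the mean of the 10 were Hfe (0.951), Pfkfb3 (0.949), Cbr3, Cd300a, Kif1a, Sort1, Cttnbp2nl, I830077J02Rik, Ube2f and Anxa3 (0.932), all higher on average in cDC and macrophages than in B, Cd4 and Cd8 cells. Hfe, a class I-like heavy chain of iron metabolism, averaged 140 TMM CPM in cDC and 100 in macrophages, against 0.406 in Cd4 and 0.560 in Cd8, and was listed at 0 in B cells.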

How the data were processed

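Whole-number UMI counts per gene and cell, with cell class, cluster and mitochondrial percent per cell, were used as deposited. The authors' mitochondrial percent was read from their cell table. Cell Ranger 5.0.1, Seurat 4.0 and the mm10 build are listed, per the submitters' processing notes, with settings not given in the sources used here. All 11640 deposited cells were kept; scrublet called 84 doublets, kept except in one alternative. The deposited counts were summed per class (or cluster) and library and tested where every library had at least 20 cells, with edgeR 4.0.16 in R 4.3.3 (TMM, filterByExpr, quasi-likelihood F-test, library as block, Benjamini-Hochberg over all tested genes). SE is the log2 fold change over the root of F. Same-library deviations from class means correlated at 0.327 to 0.915 between classes, and classes of a library come from the same nerves, which is why the library is a block. Common dispersion was 0.0204 for classes and 0.0197 for clusters. The authors' classes rest on these counts, and no p-value shows that classes are distinct. The genes and lists were chosen with earlier results of these data known. All 10 genes were read in every comparison, and not every value is given. Of each list up to 4 genes called in the most classes are named, and the 10 genes most like the members by Pearson's r; some named results are not reported here. H2-Q4 and H2-M3 were named after values or motifs were seen. Depth was 11398628 to 22587246 UMIs per library, and exact 95% intervals cover counting error only. The edgeR step was tested on simulated counts. Only some cDC genes differed between classes there, so scaling between classes as unlike as these was not tested. Alternatives were DESeq2 1.42.0, total UMIs, no count filter, no block, each library left out, no doublets, no cluster 5, and 28 cells per unit and library with limma 3.58.1. Promoter sequences are RefSeq's.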

Additional observations from a re-analysis of the deposited data

How the results depend on the processing

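Of the 80 gene and class pairs, 38 were called, and 22 to 37 with a library left out, 13 without the library block and 16 with 28 cells per class and library (limma). For clusters 45 of 120 were called, against 31 to 35 with a library left out, 19 without the block and 25 with equal cells. For the 6 pair contrasts 8 of 60 were called, against 2 to 4, 0 and 2, and for the lists 185 of 464, against 129 to 169, 87 and 89. Per contrast, the members called without the block were 0 in B, 1 in Cd4, 0 in Cd8, 1 in Treg, 1 in gdT/NK/NKT, 4 in Mac, and 0 in cDC against Mac, Treg against Cd4, cluster 4 against 3 and cluster 9 against 8. With equal cells they were 1 in B, 2 in Cd4, 0 in Cd8, 0 in Treg, 1 in gdT/NK/NKT, 4 in Mac, 2 in cDC against Mac, and 0 in the other pairs. With total UMIs they were 3 in Cd4, 4 in Mac, 0 in cluster 4 against 3, 1 in cluster 6 against 0 and 2 in cluster 9 against 8. With DESeq2 they were 2 in cluster 4 against 3 and 2 in cluster 9 against 8. In cluster 9 against 8 there were 0 without the count filter and 0 without doublets. Without cluster 5 there were 0 in Treg against Cd4, 1 in cluster 6 against 0, 2 in cluster 9 against 8 and 2 in cluster 11 against 9. With a library left out the counts ran from 3 to 6 in B, 4 to 5 in Cd4, 1 to 2 in Cd8, 1 to 4 in Treg, 1 to 4 in gdT/NK/NKT, 0 to 1 in Mixed, 5 to 9 in Mac, 6 to 7 in cDC, 1 to 4 in cDC against Mac, 0 to 1 in Treg against Cd4, 0 to 0 in cluster 4 against 3 and 0 to 1 in cluster 9 against 8. Among values called under either setting, direction turned for Nlrc5 (0.44) and Tap2 (0.062) in B with equal cells, and for B2m in Treg (0.21, adjusted p = 0.045 by edgeR), Tap1 in Mac (-0.036) and Psmb8 in Mac (-0.019) with total UMIs. Values called under neither also changed sign with total UMIs, among them Tap2 in Mac (-0.06), Tap1 in Cd4 (0.10) and H2-D1 in Cd4 (0.08). Equal cells and single libraries left out lower the depth or the number of samples, and other causes were not tested. With a library left out, mean inducible proteasome shares ran from 71.5% in Plasma to 83.4% in cDC.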
